A study of Mus musculus with 60 samples.

Results

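The collagen, laminin and integrin genes of the mouse hippocampus were taken as every gene on the array whose symbol starts with Col, Lama, Lamb, Lamc, Itga or Itgb followed by a digit. The rule found 73 genes with 159 probes, of 19057 named genes and 45281 probes in all. They were 41 collagens, 9 laminins, 20 integrins and 3 genes that share only the letters of the name (*Itgb1bp1*, *Itgb1bp2* and *Itgb3bp*, which encode proteins that bind integrin tails or carry that name and are kept apart here). Each gene was read from its probe with the highest mean signal, and 50 of the 73 were above the median level of all probes (28 collagens, 7 laminins, 13 integrins and 2 of the others). Integrins with a letter after Itga, such as *Itgam* and *Itgav*, fall outside the rule and are described separately.

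The mice were C57BL/6J males of 8 to 10 weeks. They received a single intraperitoneal injection of ketamine (20 mg/kg), memantine (15 mg/kg), PCP (phencyclidine, 5 mg/kg) or saline, or were naive, and the hippocampus was collected after 1, 2, 4 or 8 h. All 3 drugs are antagonists of the NMDA glutamate receptor. Each of the 20 groups had 3 Illumina MouseWG-6 v2 arrays, with RNA of 2 mice pooled on each, so an array is a pool and not an animal. Levels are log2 values after background correction and quantile normalization, and a difference of 1 is a doubling. The median intensity of an array before normalization ran from 138 to 1144, and 7 of 60 arrays had a high background (a ratio of their 95th to 5th percentile under 10). Slides here are the 10 runs of 6 arrays in sample order, since the sample titles name no slide. Those 7 arrays all lay on slides 4 and 6 of the 10 slides. They came from 4 conditions (saline, naive, memantine and PCP), and none was a ketamine array. Some of the results below are also given without them.

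Collagens are trimers of chains that form fibrils, networks or anchors outside the cell. Laminins are trimers of an alpha, a beta and a gamma chain and build basement membranes together with type IV collagen. Integrins are pairs of an alpha and a beta chain that tie cells to both. In the brain laminins and type IV collagen lie mainly around blood vessels, at the pial surface and in the choroid plexus. The choroid plexus is the folded tissue in the ventricles that makes cerebrospinal fluid.

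The clearest pattern among the 73 genes was in both chains of type VIII collagen, a short-chain collagen that forms open networks. *Col8a1* and *Col8a2* were higher on arrays where *Ttr* was higher. *Ttr* encodes transthyretin, a carrier of thyroid hormone that in the brain is made mostly by the choroid plexus, and the choroid plexus lies against the hippocampus. In tissue samples such as these, fewer cells of a type and less RNA per cell cannot be told apart.

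*Ttr* ranged from 15.05 to 15.94 (median 15.63) on the 12 saline arrays. It ranged from 11.08 to 15.83 in naive mice, from 11.8 to 15.91 after ketamine, from 11.57 to 15.86 after memantine and from 10.99 to 15.81 after PCP. The arrays fell into separate ranges, with 15 at 12.53 or less and the other 45 at 14.27 or more. The lower range held 5 ketamine, 4 PCP, 3 memantine and 3 naive arrays and no saline array.

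The lowest, median and highest level of *Col8a1* was 7.1, 7.83 and 8.52 in saline mice and 6.69, 7.63 and 8.89 in naive mice. The same values were 6.95, 7.34 and 8.44 after ketamine, 6.59, 7.55 and 8.62 after memantine and 6.73, 7.74 and 8.44 after PCP. *Col8a2* gave 7.84, 8.38 and 9.26 in saline mice and 7.14, 8.25 and 8.74 in naive mice. It gave 7.36, 7.89 and 8.98 after ketamine, 7.25, 8.17 and 9.38 after memantine and 7.25, 8.21 and 8.91 after PCP. All 5 conditions overlapped for both genes, and the spread lay within conditions. The SD within groups was 0.53 for *Col8a1* and 0.526 for *Col8a2*, each at percentile 99.8 of all probes, while the median SD was 0.255 over the 73 genes and 0.248 over all probes.

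The slope of each gene on *Ttr* was fitted within the 20 groups over all 60 arrays, so that differences between group means do not enter it. Of the 73 genes, 2 passed an adjusted p under 0.05 (limma, adjusted over all probes), both of them higher with *Ttr*. Of all probes 0.243% passed, 0.23% in the higher direction. At an unadjusted p under 0.05 the members numbered 6, where all probes gave 3.37%. *Col8a2* rose by 0.29 per unit of *Ttr* (SE 0.033, adjusted p = 1.89e-08) and *Col8a1* by 0.28 (SE 0.036, adjusted p = 4.42e-07). Both passed on each of 60 fits that left out 1 array. Without the 7 arrays of high background the slopes were 0.29 for *Col8a2* and 0.26 for *Col8a1* (limma, adjusted p = 2.02e-06 and 1.81e-06). The second *Col8a1* probe gave 0.29 (adjusted p = 1.7e-06). The other 2 probes of *Col8a2*, both dimmer, gave 0.040 and 0.035 and did not pass (adjusted p = 0.9999 for each), so its result rests on 1 probe of 3.

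**Figure D1:**
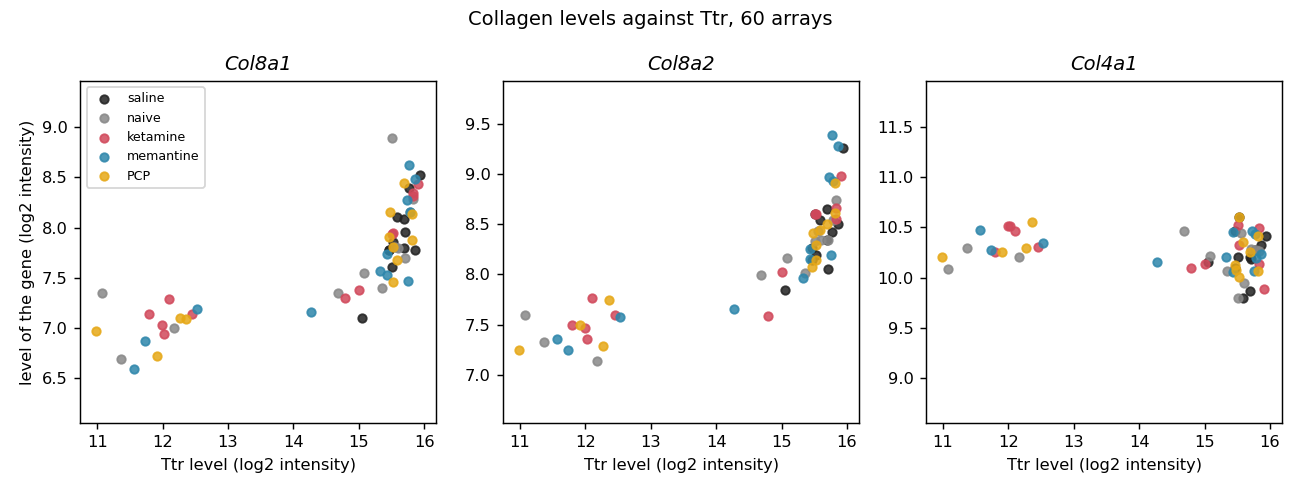
Level of *Col8a1*, *Col8a2* and *Col4a1* (vertical axes, log2 intensity, each panel spanning the same number of units) against the level of *Ttr* (horizontal axes, log2 intensity); each point is 1 of 60 arrays, coloured by condition. The 15 arrays with *Ttr* at 12.53 or less lie low for both type VIII chains and not for *Col4a1*.

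The relation was positive on each of the 10 slides of 6 arrays. Slopes of deviations from group means ran from 0.145 to 0.408 for *Col8a1* and from 0.192 to 0.396 for *Col8a2*. Within single conditions, ketamine gave 0.30 for *Col8a1* (SE 0.049, adjusted p = 0.0161) and 0.30 for *Col8a2* (SE 0.046, adjusted p = 0.0105), where 0.102% of all probes passed. PCP gave 0.26 (SE 0.041, adjusted p = 0.033) and 0.27 (SE 0.034, adjusted p = 0.00539), where 0.0795% passed. Memantine gave 0.30 (SE 0.083) and 0.36 (SE 0.099), and neither passed with limma (adjusted p = 1), where 0.00442% of all probes did. The saline arrays, on which *Ttr* spanned less than 1 unit, gave steeper slopes of 1.03 (SE 0.34) and 0.86 (SE 0.37), neither of which passed. Naive mice gave 0.18 (SE 0.34) and 0.018 (SE 0.19), and neither passed. Their 3 arrays of low *Ttr* made up the whole naive group of 4 h. Within naive groups *Ttr* therefore deviated from its mean only by -0.47 to 0.63. A test of whether the slope differed between conditions passed for 0 of the 73 genes and for 0% of all probes (2 of the 73 had an unadjusted p under 0.05 with limma, against 2.55% of all probes).

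Since the arrays form separate ranges of *Ttr*, the relation was also computed within each range. On the 45 arrays of the upper range, Pearson's r with *Ttr* was 0.706 for *Col8a1* and 0.75 for *Col8a2* (permutation test, two-sided, p = 2e-05, the smallest these permutations can give; adjusted p = 6e-05 over 6 relations; Spearman's rho 0.717 and 0.807, permutation p = 0.0002 for each). Without the 2 arrays farthest from the median of *Ttr*, r was 0.686 and 0.758. On the 15 arrays of the lower range r was 0.265 for *Col8a1* (permutation p = 0.339, rho 0.425, p = 0.117) and 0.324 for *Col8a2* (permutation p = 0.236, rho 0.329, p = 0.24). There, without the 2 farthest arrays, r was 0.76 and 0.427. These arrays were pooled over conditions and times.

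Both genes have promoters rich in G and C, and the 250 bases before the RefSeq start are shown because these chains moved together (GRCm38.p6; capitals mark GGGCGG or its reverse complement CCGCCC, the core of an Sp1-type GC box). The *Col8a1* stretch is chr16:57754738-57754987 on the minus strand, with 60.8% G and C, and the *Col8a2* stretch is chr4:126286544-126286793 on the plus strand, with 70.0%. The median was 52.4% over all promoter windows and 58.8% over those of the members, so *Col8a1* lay near the members' median.
Col8a1: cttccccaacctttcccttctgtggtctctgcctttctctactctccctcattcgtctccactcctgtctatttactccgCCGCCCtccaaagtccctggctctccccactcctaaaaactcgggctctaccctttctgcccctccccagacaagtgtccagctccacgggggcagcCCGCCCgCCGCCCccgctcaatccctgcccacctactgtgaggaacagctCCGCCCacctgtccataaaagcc
Col8a2: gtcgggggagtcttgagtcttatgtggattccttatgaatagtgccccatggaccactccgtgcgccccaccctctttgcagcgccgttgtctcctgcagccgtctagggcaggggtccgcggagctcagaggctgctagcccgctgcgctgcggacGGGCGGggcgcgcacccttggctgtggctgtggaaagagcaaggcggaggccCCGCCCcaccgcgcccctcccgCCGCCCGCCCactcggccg
Each held 4 matches, at -170, -73, -66 and -23 from the start in *Col8a1* and at -93, -41, -19 and -15 in *Col8a2*, where the last pair overlap. The motif was present in 32.7% of 32851 promoter windows of this length and in 30 of the 61 windows of the members (49.2%), so its presence is common. Neither window held TAATCC, the core site of Otx-type homeodomain factors, on either strand, and 6.25% of all windows did. The TATA box letters TATAAA had no match on either strand, and 12.4% of all windows did. The letters CACGTG, which are only 1 form of the E-box, had none, against 6.02% of all windows. The CCAAT box letters had none, against 33.8%. A match in these letters is a description of the sequence and no evidence of binding.

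The chains of type VIII collagen can form trimers of 1 chain or of both, and partner chains were compared across arrays for 21 pairs known to assemble with each other. The pairs were picked after levels had been seen. Deviations from group means were correlated over 60 arrays, with *Ttr* also removed as a straight line for the type VIII pair. Such a line need not remove all variation shared with other choroid plexus genes. Whether the pair varied together beyond those genes was not tested. Only the brightest probe of each gene was used, so the dimmer *Col8a2* probes, which did not follow *Ttr*, do not enter the values below. *Col8a1* and *Col8a2* gave r = 0.741 (rho 0.782, permutation p = 1e-05 for each, the smallest these permutations can give; adjusted p = 0.00021 over 21 pairs). The value was 0.716 with slide means removed, 0.817 without the 7 arrays of high background and 0.75 without the 2 farthest arrays. Within the ranges of *Ttr*, only *Ttr* was removed and not the group means, and permutations ran across groups. There the pair gave 0.531 on 45 arrays (permutation p = 0.00032, adjusted p = 0.00064, rho 0.597, p = 0.0002). On 15 arrays it gave 0.498 (permutation p = 0.0573, adjusted p = 0.0859, rho 0.561, p = 0.0322). Without the 2 farthest arrays r was 0.616 and 0.4.

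None of the other 20 pairs passed. Some of their chains, such as *Col4a3*, *Col4a4*, *Col5a2* and *Lamb1*, lay below the median level of all probes. A low r for such dim probes does not show that the chains vary apart. The main chains of the basement membrane network, *Col4a1* and *Col4a2*, gave r = 0.302 (rho 0.248, permutation p = 0.101, adjusted p = 0.236). *Col6a1* and *Col6a2*, chains of the beaded microfibril collagen, gave 0.288 (rho 0.335, permutation p = 0.0333, adjusted p = 0.211). *Lama2* and *Lamc1*, an alpha and a gamma chain of laminin, gave 0.369 (rho 0.286, permutation p = 0.0371, adjusted p = 0.211) and 0.00557 without the arrays of high background. The integrin pairs with *Itgb1*, the most widely shared beta chain, ran from -0.382 with *Itga3* to -0.173 with *Itga5*, and did not pass; without the arrays of high background they ran from -0.102 to 0.152.

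**Figure D2:**
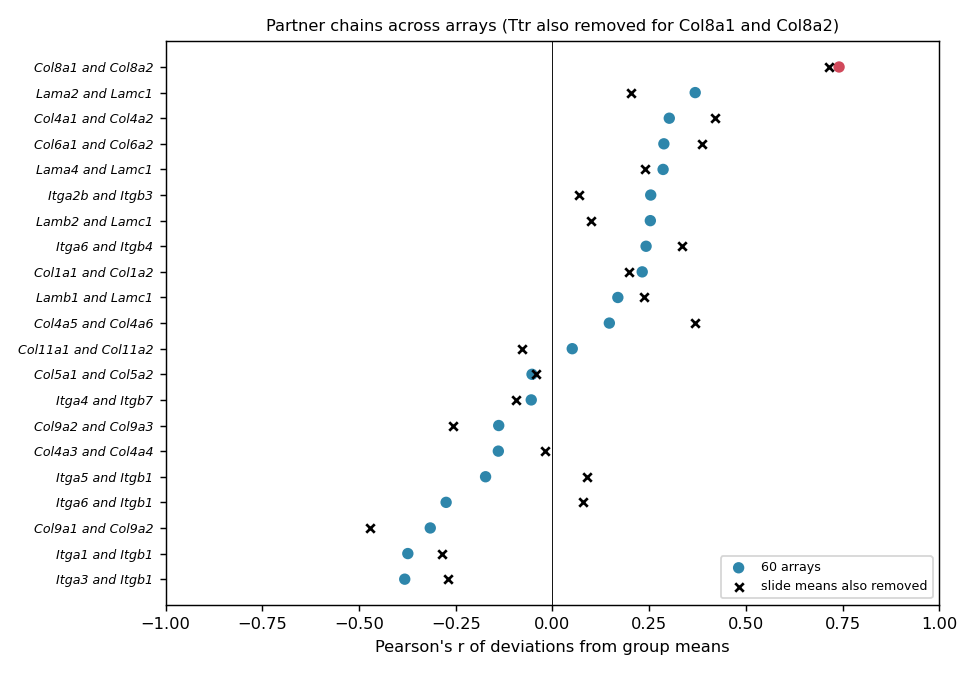
Pearson's r across 60 arrays (horizontal axis) between 21 pairs of partner chains (vertical axis), computed on deviations from group means; the red point marks an adjusted p under 0.05 and crosses have slide means removed as well. The type VIII pair sits at 0.741 and every other pair between -0.382 and 0.369. Each gene was read from its brightest probe.

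Over all 73 genes the slope on *Ttr* had a median of -0.001, the same as over all probes. *Itgb6*, a beta chain of epithelial integrin, came next with 0.11 (SE 0.027, adjusted p = 0.0743), and it did not pass. It passed with slide as a block (0.12, adjusted p = 0.0146), and its 3 dimmer probes gave 0.04, 0.06 and 0.001. The other collagens ran from -0.07 (*Col6a1*) upward, the integrins from -0.06 (*Itga4*) and the laminins from -0.03 (*Lama2*) to 0.04 (*Lama1*), and none of these was called. *Col4a1* gave -0.01 (SE 0.020) and *Col4a2* -0.01 (SE 0.020), and *Col18a1*, whose product holds endostatin, gave 0.05 (SE 0.034).

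Among markers of cell types that a hippocampal sample could hold, 13 of 14 choroid plexus genes with a probe were called higher with *Ttr* (one of them *Ttr* itself), with a median slope of 0.512. Of meningeal fibroblast markers 2 of 15 were called, of ependymal markers 2 of 6, and of endothelial, mural, microglial, astrocyte, oligodendrocyte and neuronal markers 0. The summed choroid plexus level includes *Ttr*, by far its brightest gene, and so largely repeats the range of *Ttr*. This sum ran from 15.19 to 16.24 in saline mice and from 11.95 to 16.06 after PCP, with 12.03 to 16.09 in naive mice. With the mean of 4 other choroid plexus genes (*Kl*, *Kcne2*, *Clic6* and *Folr1*) in place of *Ttr*, the slope was 0.48 for *Col8a1* (adjusted p = 7.8e-13) and 0.51 for *Col8a2* (adjusted p = 8.8e-19), per unit of that mean, and *Itgb6* passed as well (0.17, adjusted p = 0.0262). Which cells of the samples carried the type VIII mRNAs was not measured.

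**Figure D3:**
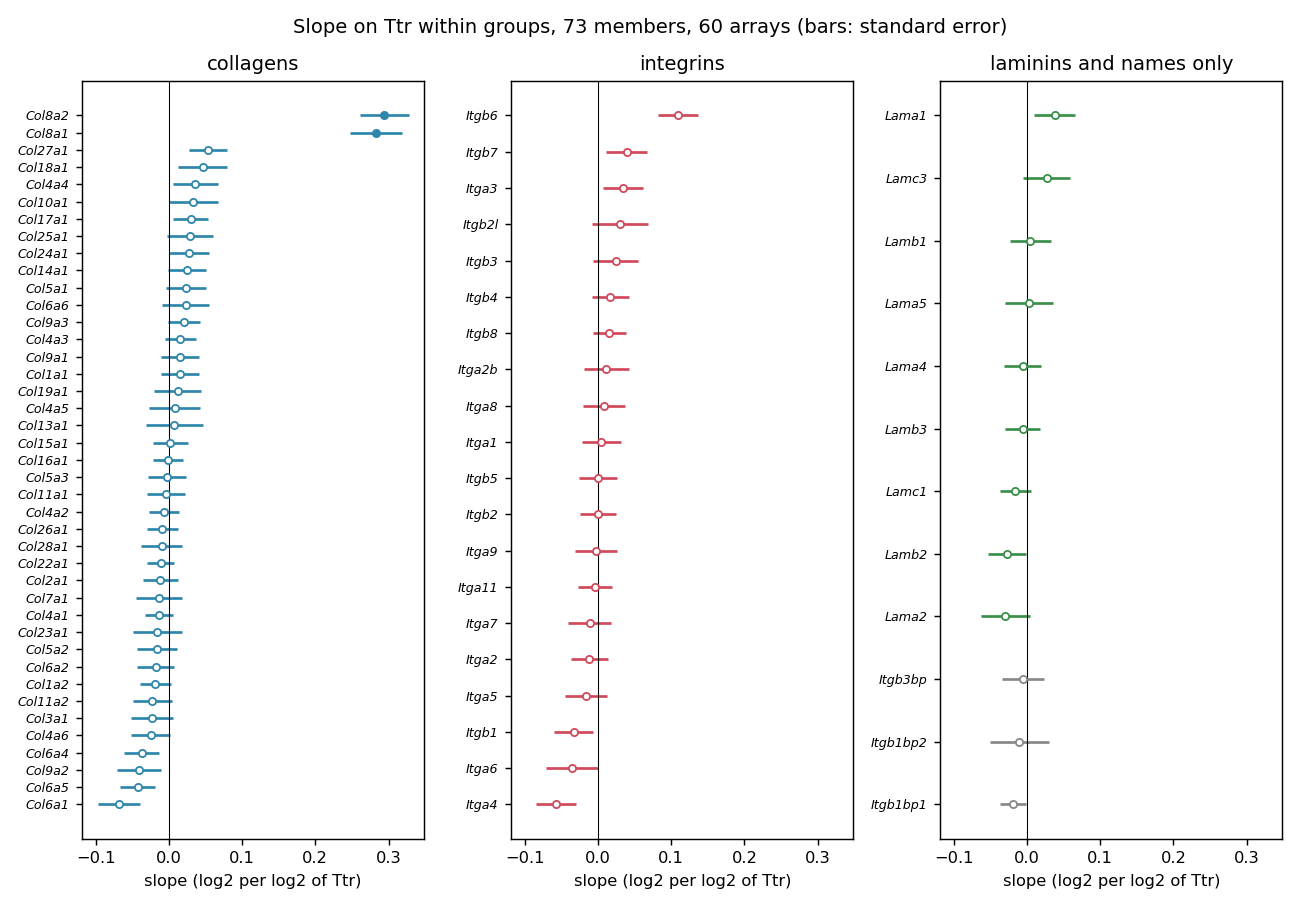
Slope on *Ttr* within groups (horizontal axes, log2 units per log2 unit of *Ttr*) with its standard error for the 73 genes (vertical axes), by family; filled points have an adjusted p under 0.05. *Col8a2* at 0.29 and *Col8a1* at 0.28 are filled, and *Itgb6* follows at 0.11.

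No collagen, laminin or integrin passed the test for any drug. As a mean of the differences from saline over the 4 times, 0 of 73 genes were called after ketamine (0.00221% of all probes), 0 after memantine (0.0243%) and 0 after PCP (0.00221%). At an unadjusted p under 0.05 with limma the numbers were 6, 2 and 5, where all probes gave 6.55%, 3.48% and 3.82%. The median difference was 0.059 after ketamine, 0.020 after memantine and 0.016 after PCP, and over all probes it was 0.003, 0.002 and 0.003. The drug by time interaction was called for 0 genes with each drug (0% of all probes each time), with 1, 4 and 2 genes at an unadjusted p under 0.05 (all probes 2.42%, 3.29% and 3.48%). Since the 3 drugs share the saline arrays and were given at different doses, their values are listed together without a test between them.

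*Col8a1* and *Col8a2* had the values farthest below saline after ketamine, at -0.30 and -0.34, with memantine at -0.26 and -0.15 and PCP at -0.28 and -0.30, none of which passed. The saline arrays were those on which no *Ttr* level was low. With the *Ttr* level as a covariate the values were 0.19 and 0.13 after ketamine, 0.061 and 0.22 after memantine and 0.046 and 0.033 after PCP, so the direction turned for both genes with each drug.

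None of 5 genes of fibrillar collagens, which give tissue its tensile strength, passed for any drug. Their mean levels were 7.385 (*Col1a1*), 7.53 (*Col1a2*), 6.79 (*Col3a1*), 8.62 (*Col5a1*) and 6.82 (*Col5a2*). *Col3a1* and *Col5a2* lay below the median of all probes, where a change is harder to see. *Col1a1* differed by -0.11 after ketamine, -0.19 after memantine and -0.07 after PCP, and its partner chain *Col1a2* by 0.06, -0.08 and 0.18 (unadjusted p = 0.0301 after PCP with limma, adjusted p = 0.9998). *Col3a1* differed by -0.18, -0.21 and -0.02. *Col5a1*, which helps to set the width of fibrils, differed by 0.03, -0.003 and 0.07, and *Col5a2* by -0.008, -0.06 and -0.08. The SE of these differences lay between 0.068 and 0.119. The basement membrane chain *Col4a1* differed by 0.09, 0.07 and 0.05 (SE 0.077, 0.078 and 0.083), and *Col4a2* by -0.04, 0.11 and 0.11. *Col9a1*, a chain of a collagen that sits on cartilage fibrils, had the highest value after memantine, 0.36 (SE 0.093, adjusted p = 0.739). It differed by 0.24 after ketamine and 0.19 after PCP. Its median level was 6.73 in saline and 7.04 in naive mice, and 7.07, 7.18 and 7.04 after ketamine, memantine and PCP. *Col17a1*, a membrane-spanning collagen of epithelia, had the highest value after PCP, 0.32 (SE 0.094), with 0.11 after ketamine and 0.16 after memantine. *Col13a1*, below the median level of all probes, differed by -0.29 after PCP (SE 0.139), -0.25 after ketamine and -0.11 after memantine. *Col9a2* had the lowest value after memantine, -0.28 (SE 0.137), and *Col18a1* gave 0.27 (SE 0.157) there. None of these passed.

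Of the 9 laminins, 7 had a positive difference after ketamine, 7 after memantine and 6 after PCP, with medians of 0.109, 0.073 and 0.045. *Lama1*, an alpha chain of early and pial basement membranes, differed by 0.15, 0.27 and 0.26. *Lama4*, an alpha chain of vessel walls, differed by 0.23, 0.12 and 0.12. *Lamc1*, the gamma chain shared by most laminins, differed by 0.14, 0.10 and 0.03. Of the 20 integrins, 17, 16 and 11 were positive. Against naive mice, 16 of the same 20 were lower in saline mice and 4 were higher. *Itgb4*, the beta chain that joins the hemidesmosome, differed by 0.28 (SE 0.098, adjusted p = 0.754), 0.19 and 0.03, and *Itga1*, an alpha chain that binds collagen, by 0.20, 0.13 and 0.22. *Itgb1* differed by -0.02, 0.08 and 0.05, and *Itgb2*, the beta chain of leukocytes and microglia, by 0.10, 0.10 and 0.03. No laminin or integrin passed. Saline against naive mice gave -0.25 for *Itgb4*, -0.22 for *Itga1*, -0.08 for *Itgb1* and -0.20 for *Itgb2*, and none passed. *Lama4* and *Itga1* lay below the median level of all probes.

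At single times, 0 of 876 comparisons of a gene with saline were called (0.00626% over all probes), and 66 had an unadjusted p under 0.05 with limma (7.53%, where all probes gave 4.62%). The 3 drug arrays and the 3 saline arrays did not overlap in 77 of them (8.79%), against 8.55% over all probes. At 2 h, 9 genes after ketamine, 14 after memantine and 12 after PCP had an unadjusted p under 0.05, where all probes gave 7%, 10.6% and 8.4%. The median difference at 2 h was 0.063, 0.148 and 0.095, and over all probes 0.006, 0.005 and 0.006. These comparisons share the 3 saline arrays of 2 h, 1 of which had a high background. One ketamine array of 2 h had a summed level of striatal neuron markers of 15.0, where the other ketamine and the saline arrays of 2 h lay between 11.58 and 12.27. Without it, 7 genes had an unadjusted p under 0.05 after ketamine (all probes 4.88%), with a median difference of 0.077, and 0 were called. *Col18a1* and *Col26a1* at 2 h after memantine came nearest to the adjusted threshold.

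*Col18a1* gave 10.74, 8.72 and 9.26 on the 3 memantine arrays at 2 h and 8.78, 8.32 and 8.43 on the 3 saline arrays. One memantine array stood well above the rest and another lay below the highest saline array, so the groups overlapped. The difference was 1.07 (SE 0.25, adjusted p = 0.0812), and it was 0.48 without the highest memantine array and 1.49 (adjusted p = 0.00244) without the lowest. The 2 dimmer *Col18a1* probes gave 0.12 and -0.21.

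*Col26a1*, a collagen first described in testis and ovary, gave 7.74, 7.86 and 8.26 after memantine at 2 h and 8.45, 8.79 and 8.58 in saline mice. The groups did not overlap, and the difference was -0.65 (SE 0.16, adjusted p = 0.0812). It passed without the highest memantine array (-0.81, adjusted p = 0.0332). The saline mean at 2 h was 8.60, while the naive arrays at 2 h lay at 8.30, 8.24 and 8.04. Both genes passed at 2 h with no background correction and among the brighter 50% of probes.

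**Figure D4:**
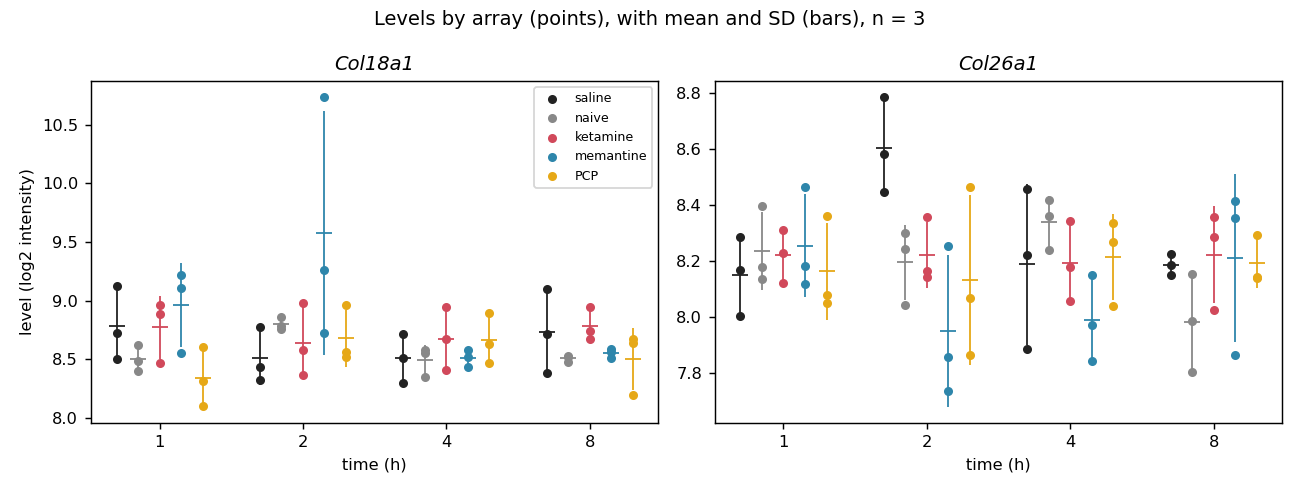
Level of *Col18a1* and *Col26a1* (vertical axes, log2 intensity) by time after injection (horizontal axes, h) in the 5 conditions; points are arrays, bars the mean and SD of 3 arrays. One memantine array at 2 h lies at 10.74 for *Col18a1*, and the saline arrays at 2 h lie high for *Col26a1*.

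*Col9a2*, a partner chain of *Col9a1*, gave 7.84, 7.78 and 6.23 on the memantine arrays at 8 h and 7.97, 8.02 and 8.44 on the saline arrays. The lowest of these is an array of high background. The difference of -0.86 (SE 0.22, adjusted p = 0.654) was -0.33 without that array. *Col17a1* gave 7.80, 7.51 and 7.10 after PCP at 1 h and 7.16, 6.60 and 6.63 in saline mice, groups that overlapped, with a difference of 0.68 (SE 0.18, adjusted p = 0.996). Its 2 dimmer probes gave -0.37 and -0.52 in that comparison.

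**Figure D5:**
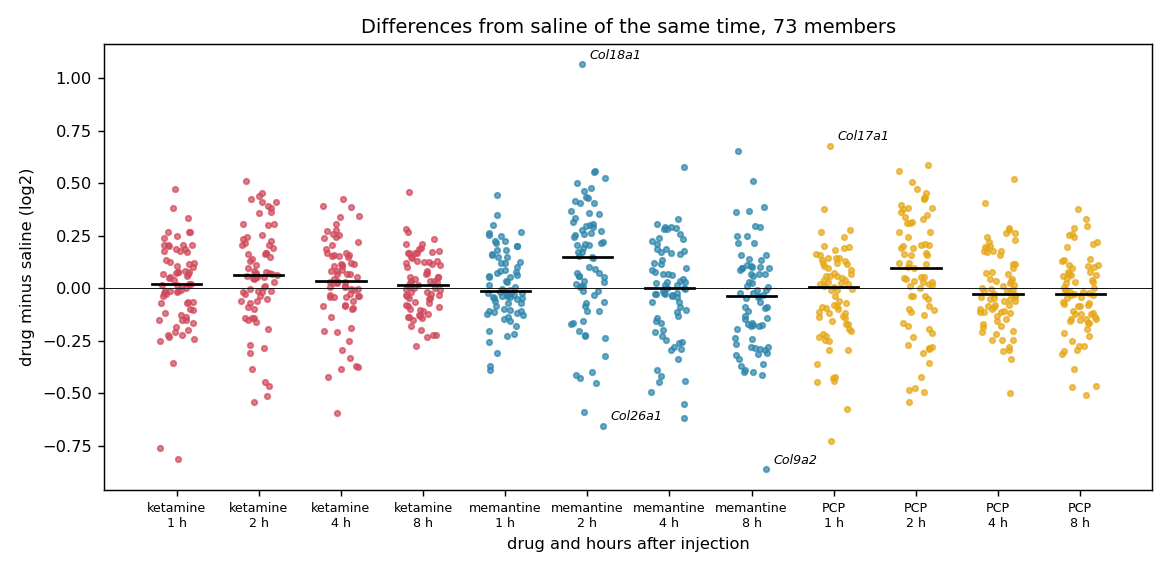
Difference of each drug from saline of the same time (vertical axis, log2) in the 12 comparisons (horizontal axis); each point is 1 of 73 genes and each line the median of the genes. None passed an adjusted p under 0.05, and the named points are *Col18a1* at 1.07, *Col26a1* at -0.65, *Col9a2* at -0.86 and *Col17a1* at 0.68.

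Injection itself and the hour of collection were examined in the same way. Saline against naive mice gave 0 called genes (0.00221% of all probes) and 4 at an unadjusted p under 0.05 with limma (all probes 3.28%). The differences farthest from 0 were *Col8a2* at 0.32, *Itgb4* at -0.25 and *Col8a1* at 0.23, and none passed. Choroid plexus markers had a median of 0.492 in the same comparison, with 1 of 14 called higher in saline mice. With *Ttr* as a covariate *Col8a1* turned to -0.23 and *Itgb4* to 0.010. With slide as a block *Col8a1* turned to -0.045 and 3 other genes passed (*Col10a1*, *Itga3* and *Itgb2l*, all lower in saline mice), and with slide as a block over all 60 arrays 0 passed. Of the 20 integrins 16 were lower in saline than in naive mice, with a median of -0.075, where all probes had -0.001. The time factor, over saline and the drugs, was called for 0 genes (0.258% of all probes), with 5 at an unadjusted p under 0.05 (all probes 5.79%). *Col22a1*, a collagen of tissue junctions, came nearest, with an adjusted p of 0.113 for the time factor. Its level at 8 h differed from that at 1 h by 0.22 (SE 0.075, adjusted p = 0.402 for that contrast).

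Other genes of the matrix and of adhesion were read from lists of related function. None of the 6 integrins with a letter after Itga, of 14 basement membrane and matrix genes, of 13 enzymes that make and cross-link collagen, of 7 proteases and inhibitors and of 14 genes of integrin signalling was called on *Ttr* or for any drug over the 4 times. Their median slopes on *Ttr* lay between -0.011 and 0.014. Among these matrix genes and the 73 members together, only *Col8a1* and *Col8a2* passed for the slope.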

How the data were processed

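Hippocampal mRNA abundance was measured on 60 arrays; the number of arrays limits the precision. The authors deposited a table of probe intensity values on a linear scale (BeadStudio output, unscaled), without control probes. The authors also deposited log2 values, described in the methods as background subtracted and quantile normalized, which served as an alternative. The absolute difference between those and quantile normalized log2 intensities averaged 0.113, and each of the 60 columns was closest to its own array. Intensities were corrected by normexp with an offset of 50, quantile normalized and log2-transformed, and fitted with limma 3.58.1 in R 4.3.3 as group means with moderated variances. Normexp can shift dim probes, and no probe was left out. P-values were Benjamini-Hochberg adjusted over 45281 probes within each comparison, with 0.05 as threshold. Drug means over the 4 times used the arrays of the drug and saline, and single times and the slope on *Ttr* used all 60. Of the probes, 34885 carried 1 gene symbol, 18 several and 10378 none. Promoters came from RefSeq (GRCm38.p6), and 55 of the members matched. Correlations used 100000 permutations (10000 for rho within the ranges of *Ttr*). They were drawn within groups for partner chains over 60 arrays, and across groups within the ranges of *Ttr*. Scripts were tested on simulated data. Replicate numbers did not pair the arrays: deviations correlated by -0.012 for the same number and by 0.006 for different ones. Arrays of the same slide correlated by 0.197 and those of different slides by -0.019; slide was left out of the main fits and tried as a block. Alternatives covered background correction, offset, normalization, the authors' values, a filter on dim probes, slide and replicate blocks, covariates, controls and leaving out arrays. P-values measure the spread between arrays, each a pool of 2 mice. The genes named were those called, the 3 with the largest difference in each drug and saline comparison, members of set roles, and the single-time examples, which were chosen after their values were seen. The members and lists were chosen with earlier results of these data known. Neither striatal arrays nor sequencing data were used here.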

Additional observations from a re-analysis of the deposited data

How the results depend on the processing

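*Col8a1* and *Col8a2* kept a positive slope on *Ttr* in all alternatives run, and passed except within saline (1.03 and 0.86), naive (0.18 and 0.018) or memantine mice alone (0.30 and 0.36), each with a count of 0 genes, and for 2 dimmer *Col8a2* probes (0.040 and 0.035). Slopes of *Col8a1* and *Col8a2* were 0.18 and 0.21 with no background correction, 0.19 and 0.21 with the authors' values and 0.35 and 0.34 with an offset of 16, and all passed. Leaving out 1 array gave 2 to 3 genes for the slope (the third was *Itgb6*), 0 to 1 for the time factor (*Col22a1*, without saline 2 h replicate 2 or PCP 2 h replicate 3) and 0 to 4 at single times. The 4, without saline 2 h replicate 1, were *Col18a1*, *Col26a1*, *Col5a3* and *Itgb2* after memantine at 2 h. *Col9a2* at 8 h passed without memantine 8 h replicate 1 (-1.14) or 2 (-1.11). With no background correction, or the brighter 50% of probes, the single-time count was 2 and the time factor count 1 (*Col22a1*). With slide as a block in the 24 arrays of saline and naive mice, 3 genes passed (*Col10a1*, *Itga3* and *Itgb2l*), and 0 passed in a fit of all 60 arrays, added after seeing the data. In the block within a comparison's 24 arrays, *Col18a1* after memantine turned to -0.058 and *Col8a1* in saline against naive mice to -0.045. With *Ttr* as a covariate, *Col8a1* turned to 0.19 (ketamine), 0.061 (memantine), 0.046 (PCP) and -0.23 (saline against naive), *Col8a2* to 0.13, 0.22 and 0.033, and *Itgb4* in saline against naive mice to 0.010. The saline against naive values of that fit reach beyond the spread of *Ttr* within groups. With naive mice as the control, *Col8a2* turned to 0.016 (PCP) and 0.17 (memantine). Apart from the covariate's own construction, the cause was not tested. With the replicate number as a block the slopes were 0.27 for both type VIII genes with a count of 2, the other counts were 0, and no call changed.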
